A study of Homo sapiens with 4 samples.

Results

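Collagens, laminins and integrins are the chains from which cells build their surrounding matrix and hold on to it. The genes were taken by symbol from the count table. They comprised every collagen chain (COL, a number, A, a number), every laminin chain (LAMA, LAMB or LAMC with a digit) and every integrin chain written as ITGA or ITGB with a number, plus ITGAV and ITGAE. This gave 54 of the 12912 genes of the table, of which 25 were collagens, 10 laminins and 19 integrins. The wording of the rule left out ITGAX, ITGA2B and ITGAD, which are integrin chains too, and ITGB1BP1, ITGB3BP and COL4A3BP, which are not chains of any of these proteins.

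The libraries came from 2 sublines of 786-O, an established line of human clear cell renal cell carcinoma without functional VHL. 786-O-Ctrl is the VHL-null subline, and 786-O-VHL carries a retroviral vector for HA-tagged wild-type VHL, the substrate receptor of a ubiquitin ligase. The labels of all 4 libraries name 786-OTR, the version with a stable triple reporter of GFP, luciferase and thymidine kinase, and both sublines grew in RPMI1640 with fetal bovine serum and antibiotics. There were 2 libraries of each subline, and whether they came from separate cultures is not given in the sources used here, so p-values measure the spread between these libraries, which may be technical. Whether 786-O-Ctrl carries an empty vector, and whether either subline is a clone, is not stated there. Each condition was a single subline, so VHL and any other difference between the sublines cannot be told apart.

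Collagens are triple helices of 3 chains, some of which lie in fibrils and some in sheets. Laminins are crosses or rods made of 1 α, 1 β and 1 γ chain, and together with type IV collagen they form the basement membrane on which renal tubule cells sit. Integrins are receptors of 1 α and 1 β chain, and the pair decides whether a cell binds collagen, laminin or the RGD sequence of fibronectin and vitronectin. Loss of VHL is known to disturb the assembly of fibronectin and collagen IV into matrix, and the comparison shows how the mRNA of these chains differed once VHL was put back.

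The 786-O-Ctrl libraries held 22141263 and 15714166 counts, and the 786-O-VHL libraries 2807779 and 16114120. A gene without counts could be present at up to 1.02 CPM (counts relative to the library total, scaled by edgeR's TMM factors) in 786-O-VHL replicate 1 and at up to 0.142 to 0.199 CPM in the other libraries, a limit that covers counting error only. Values are given for the deeper and then the shallower 786-O-Ctrl library, and for replicates 1 and 2 of 786-O-VHL. VHL itself was at 42.9 and 43.9 CPM in 786-O-Ctrl and at 178 and 163 CPM in 786-O-VHL, for a log2 fold change of 1.96 (SE, the standard error, 0.0706, edgeR FDR = 2.86e-19), with vector and cellular transcript counted together. The renal markers PAX8 (277 and 272 against 166 and 137 CPM) and KRT8 (769 and 741 against 477 and 541 CPM) were present in every library. CA9, a marker of clear cell tumours, was low, at 0.475 to 1.20 CPM. Of 12 renal and clear cell carcinoma markers tested, 1 was higher and 5 were lower at an edgeR FDR under 0.05, and 6 did not pass. Over all genes 32.6% were higher and 31.9% lower. These 12 markers summed to 3541 and 3525 CPM against 2141 and 2130 CPM. Over 5 of 8 genes, the markers of fibroblasts summed to 18.5 and 19.9 CPM against 24.1 and 25.7 CPM. Those of endothelial cells summed over 4 of 7 to 4.84 and 5.38 CPM against 1.36 and 1.48 CPM. Of the 8 leukocyte markers CD14 alone was in the table, at no more than 1.02 CPM. Among the fibroblast markers the defining genes PDGFRA, DCN and FAP had no row in the count table, and the part of such cells in the results was not tested.

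Of the 54 genes, 47 had enough counts to be tested and 7 did not. The chains moved in both directions. At an FDR under 0.05 in edgeR's quasi-likelihood test, 24 were higher and 13 lower in 786-O-VHL, and 10 did not pass. That is 78.7% of the tested chains, where 64.5% of all 12335 tested genes passed the same threshold. Higher calls made up 32.6% of all genes and lower calls 31.9%. The median log2 fold change of the 47 was 0.32, against 0.02 for all genes tested. In bulk RNA, fewer cells of a type and less RNA per cell cannot be told apart.

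By family, 10 collagens rose, 6 fell and 3 did not pass, 4 laminins rose, 3 fell and 3 did not pass, and 10 integrins rose, 4 fell and 4 did not pass. The median log2 fold change was 0.33 for the collagens, 0.19 for the laminins and 0.31 for the integrins. A change of at least 2-fold past the FDR was seen in 16 chains, 10 up and 6 down, where 17.5% of all genes passed this rule. Past 4-fold with an FDR under 0.01, a rule that 4.46% of all genes met, were ITGA11, COL14A1 and ITGB4 on the higher side and COL5A1 on the lower side. The libraries of both sublines did not overlap for 26 chains with the higher values in 786-O-VHL and for 15 with the lower ones, and overlapped for 6. Groups of 2 that do not overlap were seen for 80% of all genes.

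**Figure D1:**
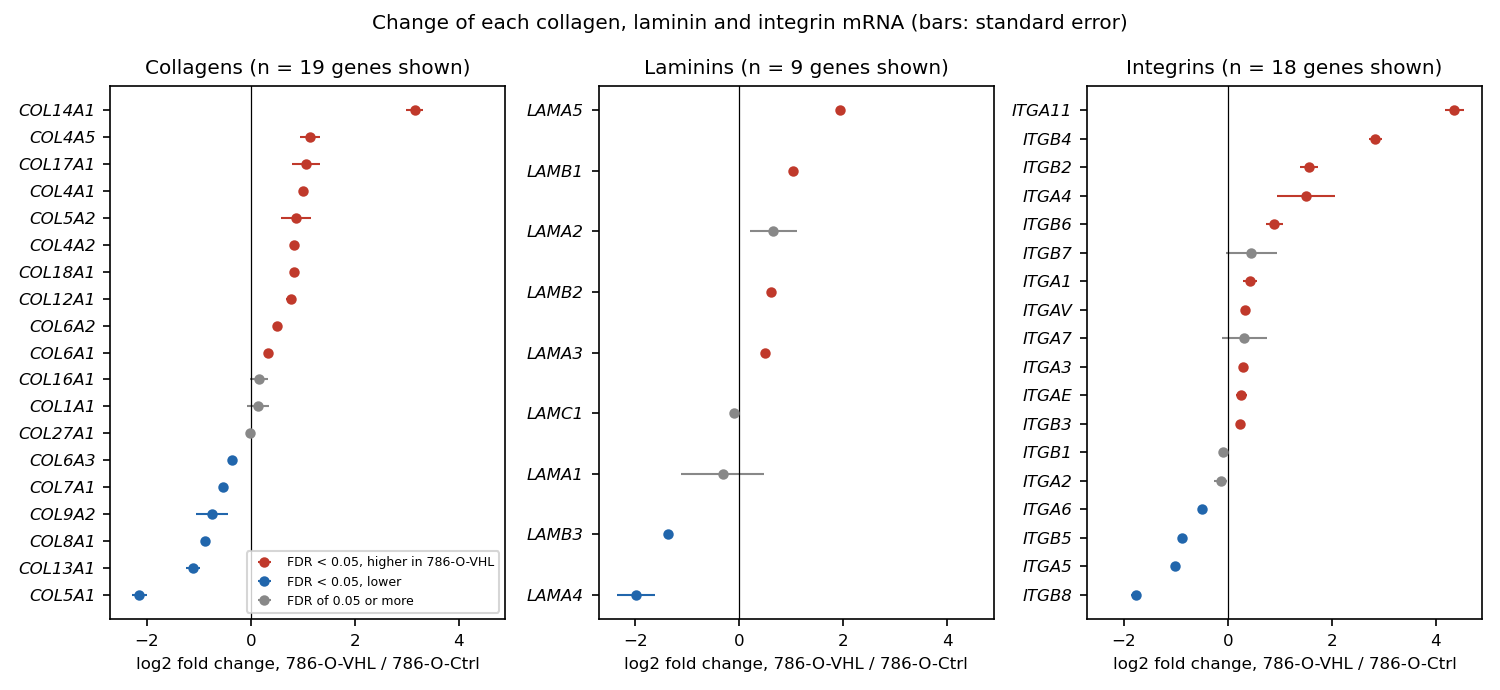
Log2 fold change of 786-O-VHL over 786-O-Ctrl (x axis) for 19 collagens, 9 laminins and 18 integrins, with bars for the standard error and colours for the edgeR call. Each family spread to both sides of 0, with ITGA11 at 4.36 and COL5A1 at -2.15 as the ends.

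Type IV collagen, the sheet-forming collagen of basement membranes, rose in each of its 3 chains that could be tested. COL4A1 was at 362 and 373 CPM in 786-O-Ctrl and at 744 and 728 CPM in 786-O-VHL. COL4A2, its partner in the common heterotrimer, was at 581 and 584 CPM and then at 1008 and 1048 CPM. For both genes the 786-O-VHL libraries lay far above the 786-O-Ctrl libraries and the replicates lay close together. The log2 fold change was 1.00 for COL4A1 (SE 0.0603, edgeR FDR = 2.38e-14) and 0.82 for COL4A2 (SE 0.0593, edgeR FDR = 1.15e-12). COL4A5, a chain best known from Alport syndrome, was scarcer, at 7.45 and 5.98 CPM against 19.3 and 13.5 CPM, and rose by 1.14 (SE 0.186, edgeR FDR = 5.21e-06). Its replicates differed more, but the lower 786-O-VHL library was still above both 786-O-Ctrl libraries. Per kilobase of exon, COL4A1 stood to COL4A2 as 0.819 and 0.841 in 786-O-Ctrl and as 0.970 and 0.913 in 786-O-VHL, a difference that was not tested. Levels per kilobase divide by the union of all annotated exons of a gene, so comparisons between genes depend on the annotation. COL4A4 (4 and 5 counts against 2 and 7) and COL4A6 (1 and 2 against 0 and 4) had too few counts for a test.

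The type IV genes lie in pairs that start back to back and are read away from each other. COL4A1 (ENSG00000187498.16) is on the minus strand of hg19 at chr13:110801310-110959504, and COL4A2 (ENSG00000134871.18) on the plus strand at chr13:110958159-111165556, and the annotated spans overlap at their starts. Both members of this pair rose, and the 126 bases between their RefSeq starts are shown because they are the upstream sequence that both genes share. In GRCh38.p14 they are chr13:110307158-110307283, read on the strand of COL4A2. On the X chromosome COL4A6 and COL4A5 are arranged alike with 379 bases between the starts, of which the 250 bases next to COL4A5 are chrX:108439588-108439837. In these and the later sequences, capitals mark ACGTG or GCGTG on either strand, the core of the element that the hypoxia-inducible factors HIF1α and HIF2α bind. The palindrome CACGTG counts on each strand. There is no match in the stretches of these 2 pairs, and the promoter window of COL4A2 holds 1 match that lies past the start of COL4A1. Only the letters were searched, and a match or its absence says nothing of whether a factor binds.
COL4A1 to COL4A2: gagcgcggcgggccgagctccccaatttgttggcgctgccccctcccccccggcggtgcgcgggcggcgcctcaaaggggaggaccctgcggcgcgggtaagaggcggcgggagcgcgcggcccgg
COL4A6 to COL4A5: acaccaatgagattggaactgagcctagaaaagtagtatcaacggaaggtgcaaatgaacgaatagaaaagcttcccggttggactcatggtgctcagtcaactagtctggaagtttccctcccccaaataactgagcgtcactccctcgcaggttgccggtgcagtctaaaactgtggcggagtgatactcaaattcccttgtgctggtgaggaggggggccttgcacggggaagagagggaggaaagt

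COL18A1, a multiplexin of basement membranes whose end is released as endostatin, rose as well. It was at 643 and 621 CPM in 786-O-Ctrl and at 1166 and 1073 CPM in 786-O-VHL, with all values of one subline above those of the other. The log2 fold change was 0.82 (SE 0.0613, edgeR FDR = 2.37e-12). Its exons overlap those of SLC19A1 on the opposite strand, and the library kit named in the labels does not mark strand. Per kilobase of exon, COL18A1 went from 4th to 2nd place among the collagens, and its share of the summed collagen level from 14.5% and 14.2% to 21.2% and 20.6%.

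Type VI collagen, which forms beaded filaments next to cells from 3 different chains, did not move as a unit. COL6A1 was at 391 and 389 CPM in 786-O-Ctrl and at 529 and 461 CPM in 786-O-VHL. COL6A2 was at 541 and 525 CPM and then at 779 and 741 CPM. Both rose, by 0.33 (SE 0.0657, edgeR FDR = 7.06e-05) and by 0.51 (SE 0.0602, edgeR FDR = 2.46e-08) on the log2 scale. COL6A3, the longest of the chains, went the other way, from 2018 and 1996 CPM to 1564 and 1555 CPM. It fell by 0.36 on the log2 scale (SE 0.0578, edgeR FDR = 3.39e-06). Per kilobase of exon, COL6A3 was 1.33 and 1.32 times COL6A1 in 786-O-Ctrl and 0.760 and 0.869 times COL6A1 in 786-O-VHL. COL6A2 was the collagen with the highest level per kilobase in both sublines, at 99.95 CPM per kb in 786-O-Ctrl and 143 CPM per kb in 786-O-VHL. In CPM, COL6A3 was the highest collagen in both, over an exon union of 21516 bases against 5334 for COL6A2.

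Both chains of the anchoring and short-chain collagens that were tested fell. COL7A1, the anchoring fibril of skin and other epithelia, was at 1066 and 1060.2 CPM in 786-O-Ctrl and at 754 and 718 CPM in 786-O-VHL, and fell by 0.53 on the log2 scale (SE 0.0597, edgeR FDR = 8.60e-09). COL8A1, a short-chain collagen of vessel walls and the cornea, went from 134 and 141 CPM to 84.4 and 69.9 CPM and fell by 0.89 (SE 0.0761, edgeR FDR = 3.74e-11). In both genes each 786-O-VHL library lay below each 786-O-Ctrl library. COL8A2 had 3 and 3 counts against 0 and 3 and was not tested.

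Fibrillar collagens are the rope-like collagens of connective tissue. The 4 of them in the count table did not move together, and chains without a row there could not be judged. COL5A1, which regulates the width of collagen I fibrils, was at 32.5 and 31.7 CPM in 786-O-Ctrl and at 8.48 and 6.95 CPM in 786-O-VHL. The 786-O-VHL values lay close to each other and far below both control values. The log2 fold change was -2.15 (SE 0.142, edgeR FDR = 1.59e-13), the lowest of all 47 chains. COL5A2, which pairs with COL5A1 in type V collagen, was at 2.42 and 2.39 CPM and then at 4.41 and 4.39 CPM, for a log2 fold change of 0.87 (edgeR FDR = 0.00922). That call rested on few counts and was lost without 786-O-VHL replicate 2 (edgeR FDR = 0.17), without the deeper 786-O-Ctrl library (edgeR FDR = 0.0873) and without the shallower one (edgeR FDR = 0.0758). COL27A1, a fibrillar collagen of cartilage, was at 90.8 and 88.9 CPM against 98.0 and 84.96 CPM, with overlapping libraries (edgeR FDR = 0.824). COL1A1, the main chain of bone and tendon collagen, was at 6.36 and 5.71 CPM against 7.12 and 6.53 CPM (edgeR FDR = 0.599).

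COL5A1 (ENSG00000130635.15) lies on the plus strand of hg19 at chr9:137533649-137736689, where an unnamed gene, ENSG00000286502, overlaps its exons on the other strand. The 250 bases before its RefSeq start, at chr9:134641553-134641802 of GRCh38.p14, are shown since the gene was the one past 4-fold on the lower side. They hold 1 match to the letters above, on the strand opposite to the gene.
COL5A1: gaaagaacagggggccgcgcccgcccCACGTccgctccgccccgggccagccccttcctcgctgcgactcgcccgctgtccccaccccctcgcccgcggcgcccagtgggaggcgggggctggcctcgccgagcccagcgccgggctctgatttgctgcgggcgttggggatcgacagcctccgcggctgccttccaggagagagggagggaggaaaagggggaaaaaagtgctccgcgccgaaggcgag

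Fibril-associated collagens decorate fibrils and link them to other matrix. COL14A1, one of this class, was at 3.37 and 3.06 CPM in 786-O-Ctrl and at 28.8 and 28.7 CPM in 786-O-VHL. It was the collagen with the highest fold change, 3.15 on the log2 scale (SE 0.164, edgeR FDR = 8.95e-16), and moved from 19th to 10th place among the 25 collagens per kilobase of exon. COL12A1, its close relative, went from 27.3 and 28.3 CPM to 40.02 and 49.9 CPM, for a log2 fold change of 0.77 (SE 0.101, edgeR FDR = 1.47e-07). COL16A1 did not pass (8.97 and 9.90 against 9.16 and 10.9 CPM, edgeR FDR = 0.436). COL9A2 was lower, with a log2 fold change of -0.76 (edgeR FDR = 0.0336), a call lost without 786-O-VHL replicate 2 (edgeR FDR = 0.33), without the deeper 786-O-Ctrl library (edgeR FDR = 0.0551) and without the shallower one (edgeR FDR = 0.29). COL21A1 (6 and 3 counts against 2 and 6) and COL22A1 (1 and 1 against 0 and 8) were not tested. COL28A1 (3 and 5 counts against 3 and 3), which is not of this class, was not tested either.

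The transmembrane collagens COL13A1 and COL17A1 moved in opposite directions. COL13A1, found at junctions of cells with matrix, was at 24.5 and 30.7 CPM in 786-O-Ctrl and at 10.9 and 13.1 CPM in 786-O-VHL, for a log2 fold change of -1.11 (SE 0.141, edgeR FDR = 8.11e-08). COL17A1, a component of the hemidesmosome that anchors epithelium to its basement membrane, was at 2.37 and 2.53 CPM and then at 4.75 and 5.17 CPM. It rose by 1.05 (SE 0.273, edgeR FDR = 0.00139), a call that was lost without 786-O-VHL replicate 2 (edgeR FDR = 0.12).

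**Figure D2:**
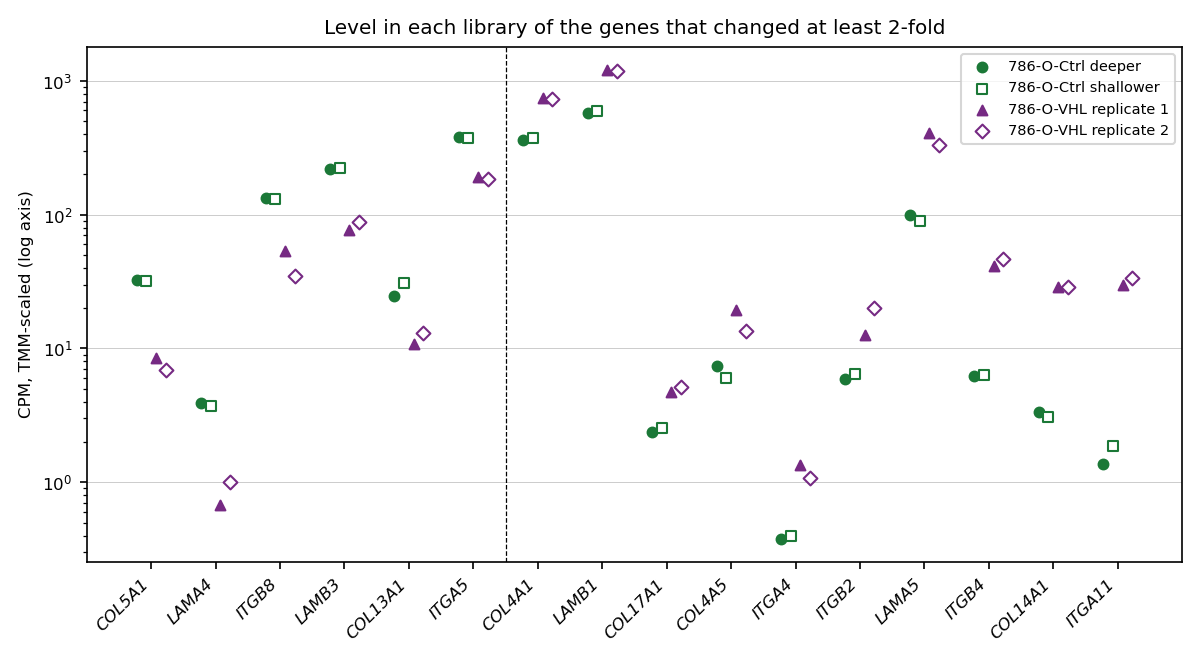
Level in each of the 4 libraries (y axis, TMM-scaled CPM on a log axis) of the 16 chains that changed at least 2-fold past an edgeR FDR of 0.05, in order of fold change, with chains lower in 786-O-VHL left of the dashed line. For each gene both 786-O-VHL libraries lie on the same side of both 786-O-Ctrl libraries, also for ITGB2 and ITGB8, whose 786-O-VHL replicates lie furthest apart among these genes.

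Of the laminin α chains, LAMA5 and LAMA3 rose and LAMA4 fell. LAMA5, the α chain of laminin-511 and laminin-521, which line adult epithelia and the glomerulus, was at 98.7 and 89.2 CPM in 786-O-Ctrl. In 786-O-VHL it was at 407 and 330.2 CPM, with both values far above the controls. The log2 fold change was 1.94 (SE 0.0786, edgeR FDR = 3.75e-18). LAMA3, the α chain of laminin-332 in epithelial anchorage, went from 235 and 220.4 CPM to 352 and 299.9 CPM, with a log2 fold change of 0.49 (SE 0.0696, edgeR FDR = 4.96e-07). LAMA4, typical of vessels and fat, was scarce and fell from 3.89 and 3.72 CPM to 0.678 and 1.01 CPM, by 1.99 on the log2 scale (SE 0.373, edgeR FDR = 3.58e-05), from 82 and 56 counts to 2 and 17. The endothelial marker ESAM fell with it, from 3.66 and 4.05 CPM to 0.678 and 0.475 CPM, and its part in the LAMA4 level was not tested. LAMA1 (6 and 13 counts against 5 and 3) and LAMA2 (21 and 13 against 2 and 28) did not pass, at an edgeR FDR of 0.742 and 0.212. Exons of LAMA5 overlap those of ADRM1 and LAMA5-AS1 on the opposite strand.

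The β chains split. LAMB1, the β chain of laminin-511, was at 572 and 593 CPM in 786-O-Ctrl and at 1195 and 1175 CPM in 786-O-VHL, for a log2 fold change of 1.02 (SE 0.0594, edgeR FDR = 1.03e-14). LAMB2, which replaces LAMB1 in laminin-521 of the mature glomerulus, went from 237 and 241 CPM to 343 and 376 CPM and rose by 0.60 (SE 0.0635, edgeR FDR = 2.82e-09). LAMB3, which occurs in laminin-332, was at 218 and 221 CPM and then at 76.3 and 88.7 CPM. It fell by 1.37 on the log2 scale (SE 0.0713, edgeR FDR = 9.74e-16), with the groups far apart. Exons of DLD overlap those of LAMB1 on the other strand.

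LAMC1, the γ chain of most laminins, was at 813 and 814 CPM in 786-O-Ctrl and at 734 and 774 CPM in 786-O-VHL, and its log2 fold change of -0.11 did not pass (SE 0.0596, edgeR FDR = 0.123), but did without 786-O-VHL replicate 2 (-0.15, edgeR FDR = 0.0081).

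LAMA3 and LAMB3, which meet in laminin-332, thus moved in opposite directions. Of the 4 chains of laminin-511 and laminin-521, LAMA5, LAMB1 and LAMB2 rose and LAMC1 did not pass. Per kilobase of exon, LAMB3 was 2.89 and 3.13 times LAMA3 in 786-O-Ctrl and 0.676 and 0.922 times LAMA3 in 786-O-VHL. Of the summed level of the laminin α chains, LAMA3 held 69.0% and 69.6% in 786-O-Ctrl but 45.9% and 47.1% in 786-O-VHL, while LAMA5 held 29.4% and 28.6% and then 53.8% and 52.6%. The order of the leading α chains thus turned in both libraries. Among the β chains, the share of LAMB3 was 41.8% and 41.5% and then 12.6% and 13.9%, and that of LAMB1 was 27.5% and 27.8% and then 49.2% and 46.1%. Shares within a library were not tested, and they take the same exon length for a gene in both sublines. They also depend on the exon union of each gene, 18592 bases for LAMB1 against 6865 for LAMB2. In CPM, LAMB1 led the β chains in both sublines.

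**Figure D3:**
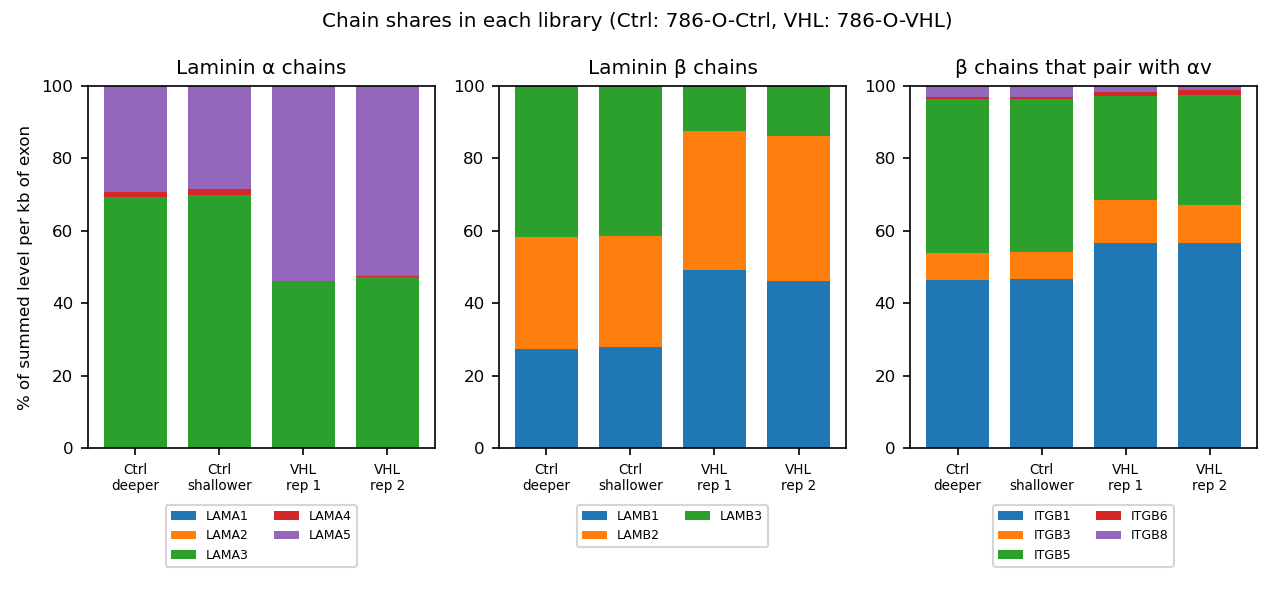
Share of each chain in the summed level per kilobase of exon (y axis, percent) in each of the 4 libraries, for the laminin α and β chains and for the integrin β chains that pair with αv. LAMA5 passed LAMA3, LAMB3 fell from about 42% to about 13% of the β chains, and ITGB5 fell from about 42% to about 30%.

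Collagen-binding integrin α chains gave the chain with the highest fold change of all. ITGA11, a collagen receptor chain best known from fibroblasts, was at 1.38 and 1.86 CPM in 786-O-Ctrl, from 29 and 28 counts. In 786-O-VHL it was at 29.8 and 33.8 CPM, from 88 and 569 counts, so that the groups were far apart. The log2 fold change was 4.36 (SE 0.186, edgeR FDR = 1.18e-17), and its place among the 19 integrins per kilobase of exon went from 16th to 10th. Of the 5 fibroblast markers tested, 2 were higher, 0 lower and 3 did not pass (32.6% and 31.9% over all genes). Among them, PDGFRB was at 3.28 and 4.25 CPM against 5.77 and 6.12 CPM, and THY1 at 1.66 and 1.93 against 2.03 and 1.72 CPM. LUM was at 0.807 and 1.40 against 2.37 and 1.96 CPM. The remaining markers, ACTA2 and RGS5, held the larger part of the fibroblast sum in each library, and their values are not listed. The part of these markers in the ITGA11 level was not tested. ITGA1 rose by 0.43 (13.6 and 14.6 against 19.3 and 18.9 CPM, edgeR FDR = 0.00653), and its exons overlap those of PELO on the same strand. This call was lost without 786-O-VHL replicate 2 (edgeR FDR = 0.0948) and without the deeper 786-O-Ctrl library (edgeR FDR = 0.11). ITGA2, the other common collagen receptor of epithelia, was at 21.4 and 26.0 CPM against 18.3 and 22.4 CPM and did not pass (edgeR FDR = 0.367). ITGA10 had 5 and 7 counts against 1 and 8 and was not tested.

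ITGA11 (ENSG00000137809.17) lies on the minus strand of hg19 at chr15:68588870-68724502, with no annotated exon of another gene over its own. The 250 bases before its RefSeq start, at chr15:68432164-68432413 of GRCh38.p14, are printed on the strand of the gene. Like those of COL5A1, which fell, they hold 1 match.
ITGA11: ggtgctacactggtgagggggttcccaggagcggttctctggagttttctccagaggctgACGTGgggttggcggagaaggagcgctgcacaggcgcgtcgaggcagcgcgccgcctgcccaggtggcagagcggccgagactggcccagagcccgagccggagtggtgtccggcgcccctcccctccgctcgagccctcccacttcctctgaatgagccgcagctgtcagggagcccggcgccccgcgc

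A RefSeq promoter window, from 250 bases before to 50 after a start, was at hand for 41 of the 54 genes, 53 windows in all. A match was in 43.4% of the 53 windows, against 48.4% of all 35116 windows of the same length. It was in 6 of 19 windows of chains that rose (31.6%), in 10 of 17 of chains that fell (58.8%) and in 5 of 8 of chains that did not pass (62.5%). Windows of 1 gene can overlap and those of back-to-back genes share bases, so these shares are a description.

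Laminin-binding α chains differed in direction. ITGA3, the main laminin receptor chain of epithelia, was by level per kilobase the leading integrin in both sublines, at 364 CPM per kb in 786-O-Ctrl and 449 CPM per kb in 786-O-VHL. Its libraries were at 3612 and 3523 CPM and at 4249 and 4546 CPM, for a log2 fold change of 0.30 (SE 0.0587, edgeR FDR = 5.60e-05) that missed the threshold without the shallower 786-O-Ctrl library (edgeR FDR = 0.0564). ITGA6, the other classical laminin receptor chain and the partner of ITGB4 in the hemidesmosome, went from 83.2 and 86.8 CPM to 57.0 and 61.4 CPM and fell by 0.49 (SE 0.0737, edgeR FDR = 1.35e-06). ITGA7, known from muscle, had 28 and 17 counts against 7 and 23 and did not pass (edgeR FDR = 0.526).

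The RGD-binding α chains moved apart. ITGA5, which with ITGB1 makes the main fibronectin receptor, was at 378 and 374 CPM in 786-O-Ctrl and at 189.9 and 183 CPM in 786-O-VHL. Both 786-O-VHL values lay far below the controls, and the log2 fold change was -1.02 (SE 0.0638, edgeR FDR = 5.56e-14). Exons of GPR84-AS1 overlap those of ITGA5 on the opposite strand. ITGAV, which joins several β chains and binds vitronectin among others, was at 488 and 506 CPM and then at 651 and 609 CPM, and rose by 0.34 (SE 0.0613, edgeR FDR = 2.39e-05). Per kilobase of exon, ITGA5 was 2.03 and 1.94 times ITGAV in 786-O-Ctrl and 0.763 and 0.788 times ITGAV in 786-O-VHL. The order of the chains turned on this scale only, since ITGAV was above ITGA5 in CPM in both sublines. Their shared ligand fibronectin is the product of FN1, which was at 7310 and 7062 CPM against 15499 and 13797 CPM, for a log2 fold change of 1.03 (SE 0.0618, edgeR FDR = 2.32e-14).

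The remaining α chains are known from leukocytes. ITGA4 had 8 and 6 counts in 786-O-Ctrl against 4 and 18 in 786-O-VHL, and its log2 fold change of 1.51 (SE 0.563, edgeR FDR = 0.0208) was lost in all 4 fits that left out a library, with an edgeR FDR of up to 0.19. Its exons overlap those of CERKL on the opposite strand. ITGAE, at 25.9 and 22.9 CPM against 30.5 and 29.0 CPM, passed by little (log2 fold change 0.26, edgeR FDR = 0.0419) and was likewise lost in all 4, with an edgeR FDR of up to 0.35.

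ITGB1, the β chain shared by the collagen, laminin and fibronectin receptors, was at 1958 and 1941 CPM in 786-O-Ctrl and at 1838 and 1843 CPM in 786-O-VHL. The groups did not overlap, but the log2 fold change was -0.08 (SE 0.0576) and the test did not pass (edgeR FDR = 0.214). ITGB4, the β chain of the hemidesmosome, changed most among the β chains. It was at 6.22 and 6.38 CPM and then at 41.0 and 46.7 CPM, for a log2 fold change of 2.84 (SE 0.129, edgeR FDR = 4.14e-17). Its partner ITGA6 fell, as given above, and the third hemidesmosome chain, COL17A1, rose from a low level.

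The β chains that join αv did not share a direction. ITGB5, a vitronectin receptor chain, was at 806 and 787 CPM in 786-O-Ctrl and at 419.5 and 443 CPM in 786-O-VHL, and fell by 0.88 on the log2 scale (SE 0.0613, edgeR FDR = 5.36e-13). ITGB8, which with αv activates latent TGF-β, was at 134 and 130.2 CPM and then at 53.2 and 34.7 CPM, and fell by 1.76 (SE 0.0981, edgeR FDR = 4.04e-15). The 786-O-VHL replicates of ITGB8 lay apart, but both were far below the control values, and its exons overlap those of ITGB8-AS1 on the opposite strand. ITGB3, the β chain of the vitronectin receptor of osteoclasts, was at 147 and 141 CPM against 182 and 164 CPM. It rose by 0.24 (SE 0.0667, edgeR FDR = 0.00224), but missed the threshold without the shallower 786-O-Ctrl library (log2 fold change 0.22). Exons of unnamed genes overlap those of ITGB3 (ENSG00000259753) and of ITGB6 (ENSG00000285155) on the same strand. ITGB6, an epithelial activator of TGF-β, was at 9.69 and 8.24 CPM against 13.9 and 17.8 CPM and rose by 0.90 (SE 0.159, edgeR FDR = 1.76e-05), which was lost without 786-O-VHL replicate 2 (edgeR FDR = 0.0656). Of the summed level per kilobase of the 5 β chains that can join αv, ITGB5 held 42.6% and 42.4% in 786-O-Ctrl but 28.8% and 30.3% in 786-O-VHL. ITGB1 held 46.3% and 46.8% and then 56.6% and 56.5%, although its own level did not pass the test.

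The leukocyte β chains were low. ITGB2 was at 5.93 and 6.45 CPM in 786-O-Ctrl and at 12.5 and 20.1 CPM in 786-O-VHL, for a log2 fold change of 1.56 (SE 0.178, edgeR FDR = 1.27e-08). ITGB2-AS1 overlaps its exons on the opposite strand, and the reads of these genes cannot be told apart. ITGB7 had 17 and 13 counts against 2 and 21 and did not pass (edgeR FDR = 0.42). The leukocyte marker CD14 was at 0.712 and 0.0664 CPM against 1.02 and 0.178 CPM.

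Summed over a family, the TMM-scaled level of the collagens was 5945 and 5904 CPM in 786-O-Ctrl and 6865 and 6622 CPM in 786-O-VHL. The laminins summed to 2385 and 2383 CPM and then to 3246 and 3208 CPM. The integrins summed to 7693 and 7579 CPM against 7811 and 8077 CPM, with the 786-O-VHL libraries above the controls in each family. ITGA3 alone held 79.2% and 78.6% of the integrin α level per kilobase in 786-O-Ctrl, but 84.6% and 85.7% in 786-O-VHL. COL7A1, the 2nd among the collagens per kilobase in 786-O-Ctrl at 95.5 CPM per kb, was the 5th in 786-O-VHL at 66.1 CPM per kb.

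**Figure D4:**
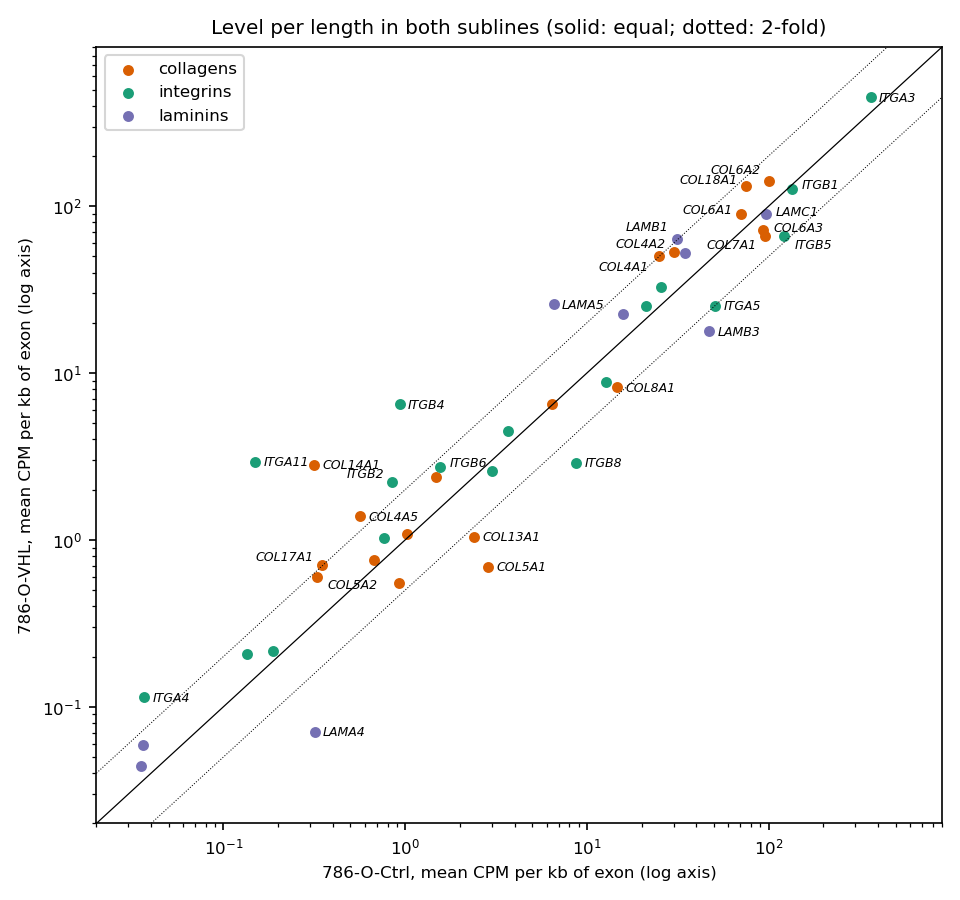
Mean level per kilobase of exon in 786-O-Ctrl (x axis) and 786-O-VHL (y axis), both in CPM per kb on log axes, for 46 of the chains tested; the solid line marks equal levels and the dotted lines 2-fold differences. ITGA3 leads at 364 and 449 CPM per kb and lies between the lines, LAMB3 at 47.2 and 17.8 CPM per kb lies below them, and ITGA11, COL14A1 and ITGB4 lie far above them at low levels.

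The partners of these chains were counted from 5 lists of genes, in which 102 genes could be tested. Of these 32 were higher, 51 lower and 19 did not pass, where over all tested genes 32.6% were higher and 31.9% lower. Their median log2 fold change was -0.19, where that of all genes was 0.02. Of the 11 other components of basement membranes, 6 rose and 4 fell (32.6% and 31.9% over all genes), with a median of 0.19. FRAS1, which holds epithelium to the basement membrane in the embryo, rose by 6.09 (0.332 and 0.266 against 21.7 and 21.2 CPM, edgeR FDR = 4.50e-17), BCAM, a receptor for LAMA5, by 3.27 and NTN4, a laminin-related netrin, by 2.14. PXDN, the peroxidase that makes the sulfilimine bond between type IV collagen molecules, fell by 3.34 on the log2 scale, from 82.9 and 88.0 CPM to 7.12 and 8.67 CPM (edgeR FDR = 4.06e-20). NID1, which links laminin to type IV collagen, fell by 1.65 and DAG1, the dystroglycan receptor for laminin, by 0.84. These 3 genes thus went in the direction opposite to COL4A1, COL4A2 and LAMA5.

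Among 17 other matrix glycoproteins and proteoglycans, 8 rose and 5 fell (32.6% and 31.9% over all genes), with a median of 0.35. Besides FN1 at 1.03, EFEMP1, a fibulin, rose by 1.44, the small proteoglycan BGN by 1.32 and the thrombospondin THBS1 by 1.08. ECM1 fell by 2.16 on the log2 scale, the latent TGF-β binding protein LTBP2 by 0.54 and the fibulin EFEMP2 by 0.50.

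Of the 26 tested enzymes and chaperones that modify, fold and cross-link collagen, 6 were higher and 16 lower (32.6% and 31.9% over all genes), with a median log2 fold change of -0.42. COLGALT1, which puts galactose on collagen, fell by 1.32 (658 and 643 against 238 and 277 CPM, edgeR FDR = 7.61e-16). ADAMTS2, which removes the amino-terminal propeptide of fibrillar collagens, fell by 2.48, from 100 and 82 counts to 1 and 17. LOXL4, a lysyl oxidase that cross-links collagen, had 35 and 16 counts against 0 and 1, and its fitted log2 fold change of -4.57 depends on edgeR's prior count. On the other side, P4HA3, a prolyl hydroxylase of collagen, rose by 2.94, MIA2, which helps to load large cargo at the exit of the endoplasmic reticulum, by 1.98 and LOXL3 by 1.52.

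Integrin partners inside the cell showed 9 higher and 16 lower of 33 tested (32.6% and 31.9% over all genes), with a median of -0.19. LIMS2, a member of the ILK complex, rose by 1.36 and the focal adhesion kinase relative PTK2B by 1.24. ACTN1, an actinin of focal adhesions, fell by 0.94 (1219.5 and 1141 against 590.4 and 637 CPM, edgeR FDR = 2.14e-13) and the ITGB1 tail binder ITGB1BP1 by 0.88. ILK fell by 1.18, from 64 and 45 counts to 5 and 21, and its exons overlap those of TAF10 on the other strand.

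Other receptors for matrix were lower in 11 and higher in 4 of 17 tested (31.9% and 32.6% over all genes), with a median of -0.35. DDR2, a receptor tyrosine kinase for fibrillar collagen, rose by 3.87, from 0.902 and 1.73 CPM to 17.97 and 18.6 CPM (edgeR FDR = 3.43e-14). Like ITGA11, it is a collagen receptor that was under 2 CPM in each 786-O-Ctrl library and far higher in each 786-O-VHL library. SDC2, a syndecan, rose by 1.06 and SDC1, another one, fell by 1.47. CD82, a tetraspanin that binds integrins, fell by 1.60 and the hyaluronan receptor CD44 by 1.01.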

How the data were processed

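The authors made libraries from total RNA of both sublines with an Illumina TruSeq kit that does not mark strand. Per the submitters' processing notes, CASAVA and STAR were used with hg19. The deposited values are raw counts, 1 row per gene. The tool and annotation behind the counting are not named in the sources used here. Both 786-O-Ctrl columns carry the same replicate number and were used as replicates without a number. All genes were fitted together with edgeR 4.0.16 in R 4.3.3: filterByExpr with a minimum count of 10, which left out 577 genes, TMM scaling, the quasi-likelihood F test and Benjamini-Hochberg adjustment (FDR). The biological coefficient of variation was 4.31%. The spread of each gene was drawn toward that of all genes, with a weight of 25.5 prior degrees of freedom. Each SE of the edgeR fit was computed back from that test, as the absolute log2 fold change divided by the square root of F. An exact permutation test of 2 libraries against 2 cannot go below 0.333, so none was used. Replicates differed beyond sampling noise (chi-square per degree of freedom 2.25 and 2.76). Levels per kilobase use the union exon length of a GRCh37 annotation that held all 54 genes. This union can be longer than the mRNA in the cells, so ranks, shares and ratios between genes depend on it. Overlaps with exons of other genes are named for some chains only. Other chains, among them COL4A2 and ITGA6, have such overlaps on the opposite strand too. Values per library are given for chains past 2-fold, the 2 most abundant of each class and 10 chains of type IV collagen, laminin-332 and the main receptors, and other chains are given for completeness. At most 3 genes per direction are named from each partner list, plus FN1. The members and lists were chosen with earlier results of these data known. Alternatives were DESeq2 1.42.0, RLE size factors, library totals, other filters on low counts, thinning and leaving out each library. Protein sequences were not analysed here. Some genes that the naming rule covers are not reported here.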

Additional observations from a re-analysis of the deposited data

How the results depend on the processing

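Of the 47 tested chains, 26 kept their direction and their side of the FDR threshold in every alternative that gave a value, among them ITGA11, COL14A1, ITGB4, COL5A1, LAMA5, LAMB1, LAMB3, COL4A1, COL4A2, COL18A1, ITGA5, ITGB5 and ITGB8. The sign changed in at least 1 alternative for 8 chains, of which COL5A2 had passed. Thinning each library to the depth of the shallowest left 40 chains tested, with 14 chains higher, 6 collagens higher, 4 integrins higher, 19 partner genes higher and 28 lower, and COL5A2 at -0.0946. COL4A5, COL12A1, COL13A1, ITGA6 and ITGB2 were among the calls lost there, and DESeq2 lost COL5A2, COL9A2, COL17A1, ITGA1, ITGA4 and ITGAE. With 1 library left out, the integrins higher numbered 6 to 8, with 6 both without 786-O-VHL replicate 2 and without the shallower 786-O-Ctrl library. Over these fits, 4 for each gene but 3 for LAMA1, which fell under the filter without the shallower 786-O-Ctrl library, the log2 fold change ran from -0.0413 to 0.21 for COL16A1, from -0.0824 to 0.119 for COL27A1, from -0.30 to 0.58 for ITGB7, from -1.54 to 1.65 for LAMA1 and from -0.47 to 0.82 for LAMA2. The sign of these genes turned without 786-O-VHL replicate 2, and that of COL27A1 also without the deeper 786-O-Ctrl library (0.0082). Library totals in place of TMM raised the median of all genes by 0.133, with COL27A1 at 0.11, ITGB1 at 0.052 and LAMC1 at 0.0285, and DESeq2 gave 0.38 for LAMA1, 19 chains higher and 12 lower. The cause was not tested. A fit with 1 library in a group takes its spread from the other group. No paired analysis was possible because both 786-O-Ctrl columns carry the same replicate number. Chains with few counts rest mostly on the other 3 libraries, since 786-O-VHL replicate 1 was shallow.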
